A study of Homo sapiens with 6 samples.

Results

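The enzymes that write and remove cytosine methylation in DNA were followed at the RNA level in cells labelled MDA-MB-453 in which N6AMT1, a methyltransferase gene, was knocked down by siRNA. The set was a list of 9 genes out of 62438 in the count table. It held the methyltransferases DNMT1, DNMT3A and DNMT3B, the maintenance cofactor UHRF1 and its relative UHRF2. The dioxygenases TET1, TET2 and TET3 and the glycosylase TDG completed it. The list goes by function and its rule uses no measured value, but it was chosen with earlier results of these data known. MDA-MB-453 is a human breast cancer cell line, and all 6 libraries carry this label. Of these, 3 libraries were transfected with an siRNA against N6AMT1 (si-N6AMT1) and 3 with a scrambled siRNA (si-CN), each at 10 nM with a lipid reagent, and RNA was taken at 48 h. The labels call each group a triplicate and do not say whether the replicates were separate cultures, so that p-values here measure only the spread between these libraries, which may be technical.

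Methyl groups on cytosine sit mostly at CpG dinucleotides, on both strands. After replication the new strand is unmethylated, UHRF1 recognises the hemimethylated site and recruits DNMT1, and DNMT1 copies the mark. DNMT3A and DNMT3B can methylate sites that carried no mark. The TET proteins oxidise 5-methylcytosine to 5-hydroxymethylcytosine and further to 5-formylcytosine and 5-carboxylcytosine, and TDG excises the last 2 of these products so that base excision repair can restore cytosine. Such changes in RNA say nothing by themselves on protein or on the methylation of DNA, and neither was analysed here.

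Library totals ran from 19739247 to 21289740 counts, so that 1 CPM (counts scaled to library size, with TMM) stood for 19.6 to 21.2 counts. Counting error is thus wide for genes at a few CPM. The markers of the labelled line were mixed. Epithelial KRT8 (599.9 CPM in si-CN), KRT18 and EPCAM were high, but KRT19 had 8 to 14 counts per library. The luminal factor gene SPDEF had 1 to 6 counts per library, while ERBB2, listed with it, stood at 53.73 CPM in si-CN. The hormone receptor genes ESR1 (4 to 15 counts) and PGR (0 to 2) were low, and both are reported absent in this line. GATA3 stood at 2.667 CPM and FOXA1 at 8.419 CPM, while the basal keratin gene KRT5 stood at 768.2 CPM, KRT14 at 110.6 CPM and VIM at 631.8 CPM. After si-N6AMT1, KRT5 stood at 829.4 CPM and KRT14 at 125.3 CPM, and their part in the results was not tested. Of markers of other cell types, PTPRC had 1 to 3 counts and COL1A1 45.8 CPM in si-CN and 45.86 after si-N6AMT1. The line name is therefore used here only as a label. Mitochondrial genes took 2.91 to 3.11% of counts in si-N6AMT1 libraries and 3.64 to 3.86% in si-CN libraries, and the same 4 of the 9 genes were called with these genes left out. The targeted gene N6AMT1 had 61, 72 and 60 counts in the si-N6AMT1 libraries and 136, 135 and 141 in the si-CN libraries, a fall to less than the level of any control (log2 fold change -1.10 ± 0.119 SE, edgeR FDR 3.65e-07). In all, 17320 genes had enough counts to be tested. At an FDR of 0.05 by edgeR's quasi-likelihood test, 1993 were lower in si-N6AMT1 (11.5% of those tested) and 1694 were higher (9.78%).

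All 9 genes passed the filter on low counts. DNMT1, UHRF1, UHRF2 and TET2 fell after si-N6AMT1, and DNMT3A, DNMT3B, TET1, TET3 and TDG did not pass the test in either direction. The count of 4 of 9 lower stands beside the 11.5% of all tested genes called lower, and 0 of 9 higher beside the 9.78% called higher. None of the 9 was higher at an unadjusted p under 0.05 either, or higher by DESeq2 or limma-voom. The 4 genes that fell were also those in which every si-N6AMT1 library lay below every si-CN library, an arrangement found in 18.0% of all tested genes. The opposite arrangement, found in 16.8% of all tested genes, occurred in none of the 9. Their log2 fold changes had a median of -0.0071, against 0.00385 over all tested genes.

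**Figure D1:**
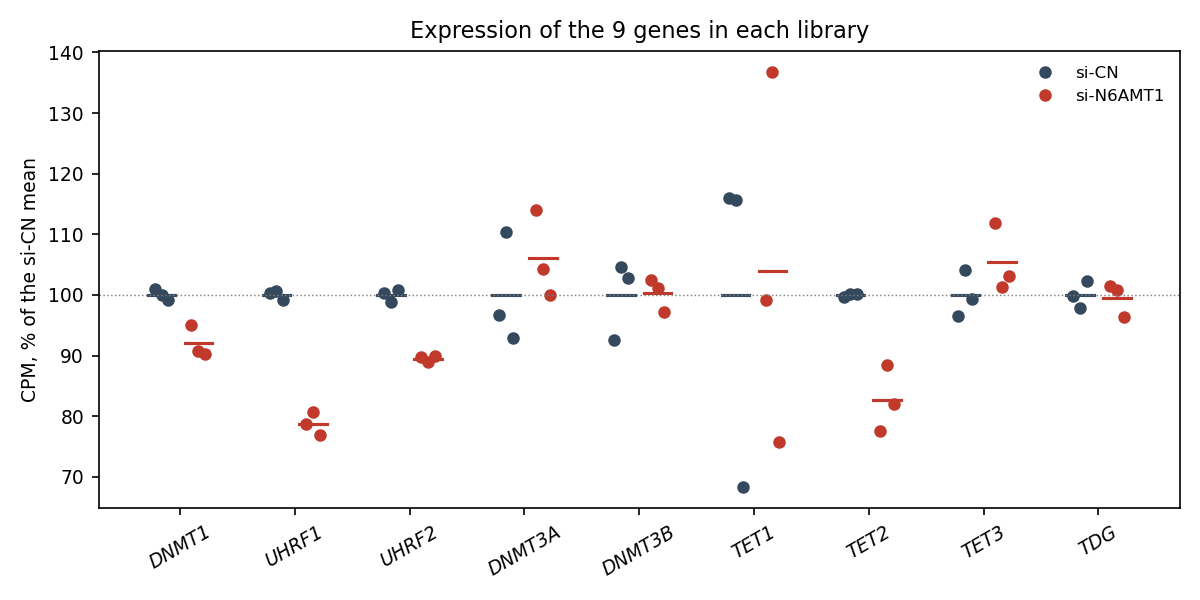
Expression of the 9 genes in each of the 6 libraries, as CPM in percent of the si-CN mean of the same gene (vertical axis), with points for libraries and short bars for group means. The si-N6AMT1 points of DNMT1, UHRF1, UHRF2 and TET2 lie below all si-CN points of the same gene, and the points of the other 5 genes overlap.

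The sequences that go with these genes are given before the values. A pair of 7-base words, TTCACAT and TCACATA, had been picked in an earlier search of 3′ UTRs with these same fold changes, so that their presence in a gene that fell is a description and no independent evidence. On GRCh37 each of 3 of the 4 genes that fell holds 1 match in the 3′ UTR of its reference transcript, and each is shown 5′ to 3′ on the RNA strand with the matching word in capitals.
DNMT1: caatctgtccgTTCACATgtgtggtacat
UHRF1: gatattttaaaTCACATAcctgcagacaa
TET2: ttgaagcagaaTTCACATcatgatggtgc
The DNMT1 match starts at base 86 of a 3′ UTR of 321 bases (chr19:10244240-10244268, minus strand). That of UHRF1 starts at base 1175 of 1351 (chr19:4961978-4962006, plus strand), and that of TET2 at base 1700 of 3284 (chr4:106199365-106199393, plus strand). Neither word occurs in the 875 bases of the UHRF2 3′ UTR, although UHRF2 fell. Neither occurs in the 3′ UTRs of the 5 genes that did not pass the test, and these include the longest of the set, DNMT3A with 6405 bases and TET3 with 6000. Long UTRs hold such words more often. Among tested genes with a UTR within 1.2 times the same length, 2.88% held a match for DNMT1, 17.1% for UHRF1, 40.8% for TET2, 64.4% for DNMT3A and 61.7% for TET3. Over 13301 tested genes with a 3′ UTR, 22.2% held a match, 44% of the genes called lower and 11.7% of those called higher. The median log2 fold change was -0.0603 with a match and 0.0165 without. These shares and medians rest on the fold changes with which the words were picked, so they too are no independent evidence. The genes called lower and higher were not matched for UTR length.

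Promoters were read from RefSeq as windows of 300 bases, 250 before and 50 after each annotated start, on GRCh38.p14, a later build than that of the counts and used here for sequence only. E2F factors drive genes of the G1 to S transition, and the words TTTCCCGC, TTTGGCGC, TTTCGCGC and TTTGCCGC were searched on both strands. They occurred in 3.31% of 35116 windows. Each word holds a CpG, and this share is per window and not matched for CpG content, so it is no matched rate for the 9 genes. Among the windows of the 9 genes, only those of DNMT1 and UHRF1 held a match. The DNMT1 window (chr19:10194904-10195203, minus strand) and the first of 3 UHRF1 windows (chr19:4909251-4909550, plus strand) are shown with the match in capitals.
DNMT1: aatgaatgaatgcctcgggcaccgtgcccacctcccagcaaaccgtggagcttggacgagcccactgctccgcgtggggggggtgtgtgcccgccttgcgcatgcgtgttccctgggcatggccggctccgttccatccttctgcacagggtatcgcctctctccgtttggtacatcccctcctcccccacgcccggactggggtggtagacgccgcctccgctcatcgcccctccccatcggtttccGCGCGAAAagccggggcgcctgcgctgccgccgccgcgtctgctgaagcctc
UHRF1: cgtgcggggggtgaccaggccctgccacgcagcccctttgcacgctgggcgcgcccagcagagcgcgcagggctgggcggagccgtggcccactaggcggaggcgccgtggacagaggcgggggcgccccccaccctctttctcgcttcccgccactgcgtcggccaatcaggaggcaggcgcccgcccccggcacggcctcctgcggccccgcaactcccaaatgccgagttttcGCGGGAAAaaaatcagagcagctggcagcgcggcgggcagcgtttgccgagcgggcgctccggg
The match begins 2 bases before the start of DNMT1 and 14 bases before that of UHRF1. A second UHRF1 window holds TTTCGCGC 160 bases before its own start, and the third holds no match. None of these words was found in the windows of the other 7 genes, which says only that these letters are not in those windows. Starts outside the windows used were not searched. The DNMT1 window has 30 CpG dinucleotides and the first UHRF1 window 36, while the median of all windows was 14 and the upper quartile 28. Other windows of the set hold as many, among them 1 of TET2 with 35 and, of genes that were not called, 1 of DNMT3A with 46 and 1 of TET3 with 45. The only DNMT3B window used has 3, and whether it lies at the main start of this gene was not checked. A match is a string of letters and was not tested as a binding site.

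DNMT1 and UHRF1 form the maintenance pair. DNMT1 (ENSG00000130816, chr19:10244018-10341962 on GRCh37) gave 196.9, 188.2 and 186.9 CPM in the si-N6AMT1 libraries and 209.1, 207.1 and 205.4 CPM in the si-CN libraries. The highest si-N6AMT1 library stayed below the lowest control. The fall was small, 190.7 ± 5.45 against 207.2 ± 1.83 CPM (SD, n = 3), which is -8% with a 95% confidence interval of -11.3 to -4.61% (edgeR FDR 0.00115). Between 3832 and 4357 counts per library lay behind these values. Of all tested genes, 22% had a log2 fold change as low or lower. DNMT1 shares 83 exon bases with S1PR2, which held only 127 to 168 counts per library.

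UHRF1 (ENSG00000276043, chr19:4903092-4962165), the ubiquitin ligase that reads hemimethylated CpG, had the lowest fold change of the 9. Its libraries stood at 59.08, 60.54 and 57.69 CPM after si-N6AMT1 and at 75.23, 75.47 and 74.4 CPM after si-CN. The groups were far apart compared with the spread within each. UHRF1 fell by 0.34 on the log2 scale (± 0.0333 SE, edgeR FDR 6.97e-08), which is -21.2% (95% confidence interval -24.9 to -17.4%), and 4.88% of all tested genes had a value as low or lower. UHRF2 (ENSG00000147854, chr9:6413151-6507054), a related ligase that also binds 5-hydroxymethylcytosine, gave 116.1, 115.2 and 116.3 CPM after si-N6AMT1 and 129.9, 127.9 and 130.5 CPM after si-CN. The spread within either group was at most 1.34 CPM (SD), and the change was -10.5% (-13.8 to -7.12%, edgeR FDR 7.36e-05).

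DNMT3A and DNMT3B did not move beyond their spread. DNMT3A (ENSG00000119772, chr2:25450724-25565459) gave 15.79, 14.45 and 13.85 CPM after si-N6AMT1 and 13.4, 15.29 and 12.87 CPM after si-CN. The libraries of both groups interleave. The log2 fold change was 0.09 with a 95% confidence interval of -0.08 to 0.25 (edgeR FDR 0.496), so that values from a small fall to a rise of 0.25 remain possible. DNMT3B (ENSG00000088305, chr20:31350191-31397165) gave 41.62, 41.09 and 39.5 CPM against 37.64, 42.51 and 41.73 CPM. Its interval was narrower, -0.09 to 0.10 around 0.0028 (edgeR FDR 0.976). The 3 DNMT1 values fell outside the range of the controls while both de novo enzymes stayed inside or across it, but no test of DNMT1 against them was made. DNMT3L, a catalytically inactive partner of DNMT3A and DNMT3B, had 0 to 1 counts per library.

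**Figure D2:**
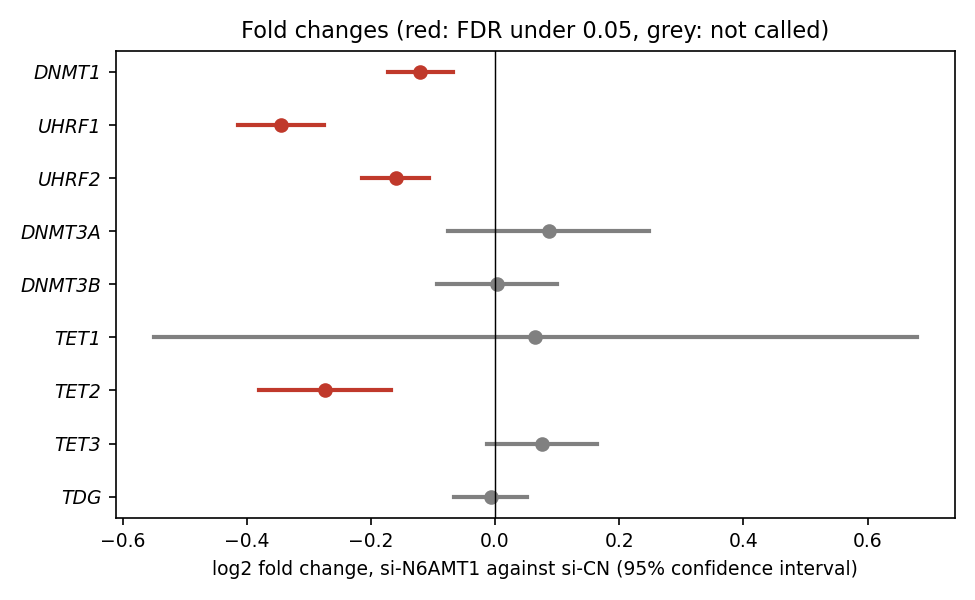
log2 fold change of si-N6AMT1 against si-CN for the 9 genes (horizontal axis), with 95% confidence intervals from edgeR as lines and red for FDR under 0.05. The intervals of DNMT1, UHRF1, UHRF2 and TET2 lie wholly below 0, and that of TET1 runs from -0.55 to 0.68.

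Among the TET genes only TET2 passed the test. TET2 (ENSG00000168769, chr4:106067032-106200973) gave 25.27, 28.8 and 26.72 CPM after si-N6AMT1 and 32.45, 32.65 and 32.63 CPM after si-CN. The controls had an SD of 0.113 CPM, and the si-N6AMT1 libraries were more scattered, with replicate 1 lowest. TET2 fell by 0.27 on the log2 scale (± 0.0511 SE, edgeR FDR 0.000374), which is -17.3% (95% confidence interval -23.1 to -11%). TET3 (ENSG00000187605, chr2:74212037-74335303) gave 55.49, 50.2 and 51.1 CPM against 47.88, 51.6 and 49.27 CPM. The values overlap, and the log2 fold change of 0.08 had an interval of -0.01 to 0.16 (edgeR FDR 0.241). TET3 shares 390 exon bases with the long noncoding gene ENSG00000235499, which had 5 to 12 counts per library.

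TET1 (ENSG00000138336, chr10:70320094-70454244) was close to the limit of the data. It had 19, 27 and 15 counts in the si-N6AMT1 libraries and 22, 22 and 14 in the si-CN libraries, about 1 CPM. With an interval of -0.55 to 0.68 on the log2 scale, a change of the size seen for TET2 would not have been detectable for TET1 at this depth. TDG (ENSG00000139372, chr12:104359600-104382652), the glycosylase downstream of the TET proteins, gave 128.8, 128 and 122.4 CPM against 126.8, 124.3 and 129.9 CPM. Its log2 fold change of -0.0071 had an interval of -0.07 to 0.05 (edgeR FDR 0.903). The pseudogene copies TDGP1 and DNMT3AP1 had 0 counts, and TET1P1 and the antisense gene TET2-AS1 had 0 to 1, so that almost no reads were given to these copies. TDG shares 168 exon bases with the long noncoding gene ENSG00000288744, which is not among the counted genes.

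Levels between genes were compared as TPM, which divides by transcript length, since CPM does not. In si-CN the order was TDG (88.8 ± 2.37 TPM, SD, n = 3), DNMT1 (87.4 ± 0.47), UHRF2 (80.5 ± 1.1), UHRF1 (42.8 ± 0.494), DNMT3B (20.9 ± 1.58), TET3 (9.15 ± 0.433), TET2 (7.56 ± 0.116), DNMT3A (3.27 ± 0.313) and TET1 (0.223 ± 0.0601). TDG and DNMT1 were not apart beyond their spread, and all other neighbours were. TDG had more TPM than 89% of 17433 expressed protein-coding genes, UHRF1 more than 78.3%, TET2 more than 46.1% and TET1 more than 19.5%. The lengths were those of reference transcripts, and with the longest transcript of each gene UHRF2 (98.1 TPM) came before DNMT1 (81.7 TPM). After si-N6AMT1, UHRF1 stood at 33.7 ± 0.78 TPM and TET2 at 6.23 ± 0.355 TPM, and the order of the 9 genes was kept.

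**Figure D3:**
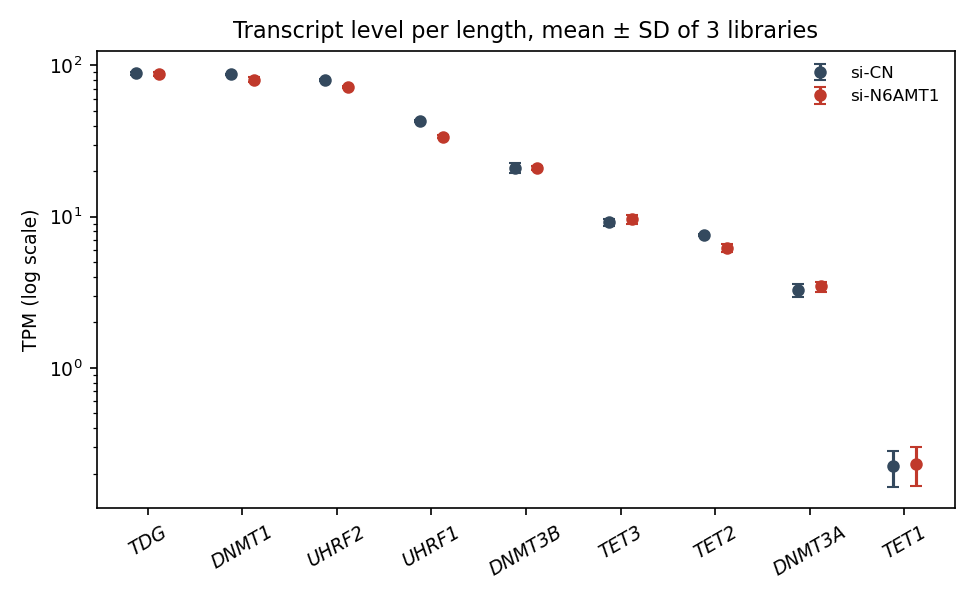
Transcript level of the 9 genes in TPM on a log axis, mean ± SD of 3 libraries per group, ordered by the si-CN mean. The values run from 88.8 TPM for TDG to 0.223 TPM for TET1 in si-CN.

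As a share of the methyltransferase transcripts in TPM, DNMT1 took 78.4% ± 1.16 (SD, n = 3) in si-CN and 76.7% ± 0.297 after si-N6AMT1. DNMT3B took 18.7% ± 1.07 and 19.9% ± 0.302, and DNMT3A 2.93% ± 0.241 and 3.31% ± 0.128. DNMT1 thus stayed the main methyltransferase transcript in both groups. Within the TET family TET2 took 44.7% ± 0.877 in si-CN and 38.8% ± 2.63 after si-N6AMT1, and TET3 took 54% ± 0.854 and 59.8% ± 2.86. TET1 held 1.32% ± 0.358 and 1.44% ± 0.412. Shares within a family are not independent, so a lower share of DNMT1 or TET2 must raise the others. The TET sum was 16.9 ± 0.534 TPM in si-CN and 16.1 ± 0.371 TPM after si-N6AMT1. That of the methyltransferases was 112 ± 2.2 and 105 ± 3.9 TPM. TET3, DNMT3A and DNMT3B themselves were not called.

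A ratio of 2 genes within 1 library does not depend on the scaling of libraries. The pairs were chosen with the values known. The log2 ratio of DNMT1 to UHRF1 counts was 1.69 ± 0.0504 after si-N6AMT1 and 1.466 ± 0.00897 after si-CN (SD, n = 3), a difference of 0.224. That of UHRF1 to UHRF2 was -0.971 ± 0.0411 and -0.787 ± 0.0244, and that of TET2 to TET3 was -0.957 ± 0.168 and -0.605 ± 0.0502. In these 3 pairs the groups did not overlap, and the two-sided exact permutation test gave p = 0.1 for each, the smallest that 3 against 3 libraries allow (0.133 adjusted over 4 pairs). DNMT3A to DNMT3B differed by 0.082 with overlapping libraries (exact permutation p = 0.6, 0.6 adjusted). UHRF1 therefore lay lower relative to DNMT1 and to UHRF2 in every si-N6AMT1 library than in any control, as did TET2 relative to TET3, but the design cannot bring such a ratio under 0.05.

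**Figure D4:**
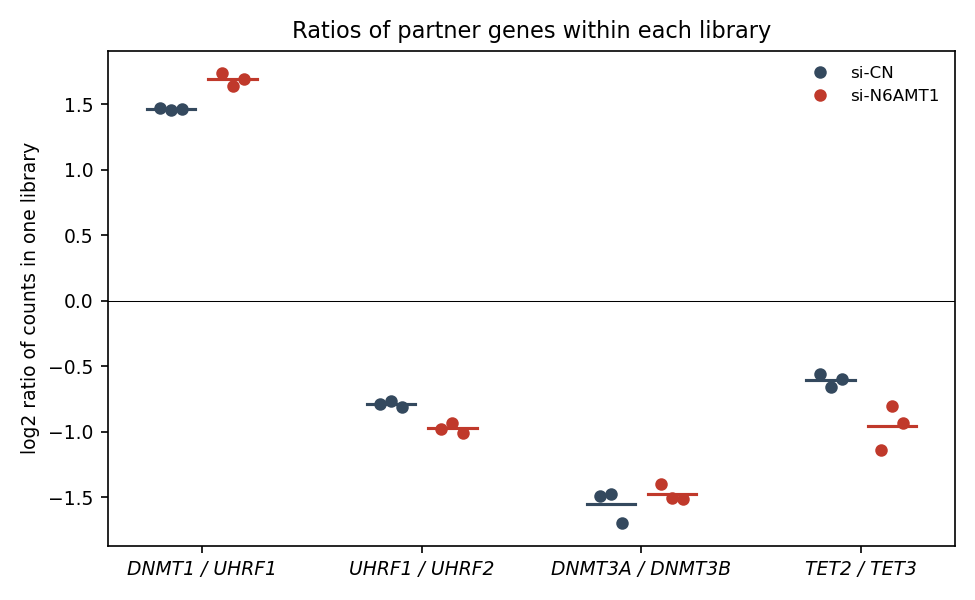
log2 ratio of the counts of 2 genes in the same library (vertical axis) for 4 pairs, with points for libraries and bars for group means. The si-N6AMT1 and si-CN points are apart for DNMT1 to UHRF1, UHRF1 to UHRF2 and TET2 to TET3, and overlap for DNMT3A to DNMT3B.

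UHRF1 and DNMT1 transcripts are known to rise in S phase, so genes of DNA replication were read beside them. Of 20 such genes, 11 were lower and none was higher by edgeR (13 and 0 at an unadjusted p under 0.05, and 0 higher by DESeq2 or limma-voom), with a median log2 fold change of -0.138 against 0.00385 over all tested genes. Of all tested genes 11.5% were lower and 9.78% higher. In 13 of the 20 every si-N6AMT1 library lay below every control, as in 18.0% of all tested genes, and in 1 above, as in 16.8%. CDC6, which loads the replicative helicase, fell from 135.9 to 98.68 CPM (log2 fold change -0.46, edgeR FDR 1.44e-11). The helicase subunits MCM7 (-0.19, FDR 1.35e-06) and MCM4 (-0.17, FDR 2.75e-05) and the ribonucleotide reductase subunit RRM1 (-0.16, FDR 1.7e-05) fell less. PCNA, the sliding clamp that binds DNMT1, was not called (84.71 CPM in si-CN and 87.85 after si-N6AMT1, FDR 0.295); it was named after its value had been seen. The part of S phase genes in the values of UHRF1 and DNMT1 was not tested, and fewer cells in S phase cannot be told apart from less RNA per cell in such bulk samples. The single-library exceptions were CDT1, which was lost with any of 4 libraries left out (FDR up to 0.228), GINS2, lost with any of 3 (up to 0.117), MCM2, gained without si-N6AMT1 replicate 1 (0.021) or si-CN replicate 2 (0.0371), and GINS1, gained without si-N6AMT1 replicate 3 (0.0473).

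Of 10 readers of methylated DNA, 2 were lower and 2 higher, and the median was 0.0112. Over all tested genes 11.5% were lower and 9.78% higher, so that these counts are no result about the readers as a group. ZBTB38, a zinc finger protein that binds methylated CpG, fell from 48.6 to 39.77 CPM (log2 fold change -0.29, edgeR FDR 8.24e-05) and its relative ZBTB4 rose from 110.7 to 124.4 CPM (0.17, FDR 8.28e-05). MBD6 rose (0.14, FDR 0.00657, but 0.125 with a replicate block and a GC correction) and ZBTB33, also called Kaiso, fell (-0.14, FDR 0.0245). ZBTB33 lost its call without si-N6AMT1 replicate 1 (FDR 0.0941) or 3 (0.0582) and without si-CN replicate 1 (0.0579) or 2 (0.183), and MBD2 was called only without si-N6AMT1 replicate 1 (0.042).

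Of 12 partners of the methyltransferases, 10 were tested, 3 were lower and 1 higher, with a median of -9e-04, beside 11.5% lower and 9.78% higher over all tested genes. HELLS, the remodeller that opens nucleosomal DNA to methylation, fell from 159.1 to 146.8 CPM (log2 fold change -0.12, edgeR FDR 0.00191), as did its activator CDCA7 (-0.13, FDR 0.018) and the related CDCA7L (-0.12, FDR 0.0109). The histone methyltransferase gene SETDB1 was higher (0.14, FDR 0.0425) with overlapping libraries. HELLS missed the threshold with a replicate block and a GC correction together (FDR 0.0759). The other 3 calls were each lost with some single libraries left out. CDCA7 lost its call without si-N6AMT1 replicate 3 (FDR 0.0626) or si-CN replicate 1 (0.0624) or 3 (0.0941), CDCA7L without si-N6AMT1 replicate 2 (0.051) or si-CN replicate 3 (0.0681), and SETDB1 without si-N6AMT1 replicate 1 (0.209) or 2 (0.0865) or si-CN replicate 1 (0.128) or 3 (0.192).

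TET proteins need 2-oxoglutarate, which isocitrate dehydrogenases make. Of 10 TET partners and cofactor enzymes, 8 were tested, 2 were lower and 1 higher, with a median of -0.0642, again beside 11.5% and 9.78% of all tested genes. IDH1, the cytosolic enzyme, fell from 54.04 to 48.62 CPM (log2 fold change -0.15, edgeR FDR 0.00552). IDH3A, a subunit of the mitochondrial enzyme, was lower (-0.10, FDR 0.0307) and CXXC5, which binds unmethylated CpG, was higher (0.18, FDR 0.0277). IDH3A lost its call without si-N6AMT1 replicate 2 (FDR 0.115) or 3 (0.11) or si-CN replicate 1 (0.061) or 3 (0.137), and CXXC5 without si-N6AMT1 replicate 3 (0.148) or si-CN replicate 2 (0.112) or 3 (0.0637).

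Base excision repair completes the removal that TDG begins. Of 21 genes, 19 were tested, 3 were lower and 1 higher, with a median of -0.03, which is near the 11.5% lower and 9.78% higher of all tested genes. UNG, which excises uracil, fell from 59.05 to 48.14 CPM (log2 fold change -0.30, edgeR FDR 9.32e-06) and PARP1, which senses strand breaks, from 280.6 to 238.3 CPM (-0.24, FDR 2.01e-07). GADD45B, a stress gene tied to active demethylation, fell as well (-0.23, FDR 4.92e-05), and SMUG1, another uracil glycosylase, rose (0.22, FDR 0.007, but 0.0517 without si-CN replicate 2). GADD45A was called only without si-N6AMT1 replicate 1 (0.0302) or si-CN replicate 1 (0.0146) among the libraries left out.

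**Figure D5:**
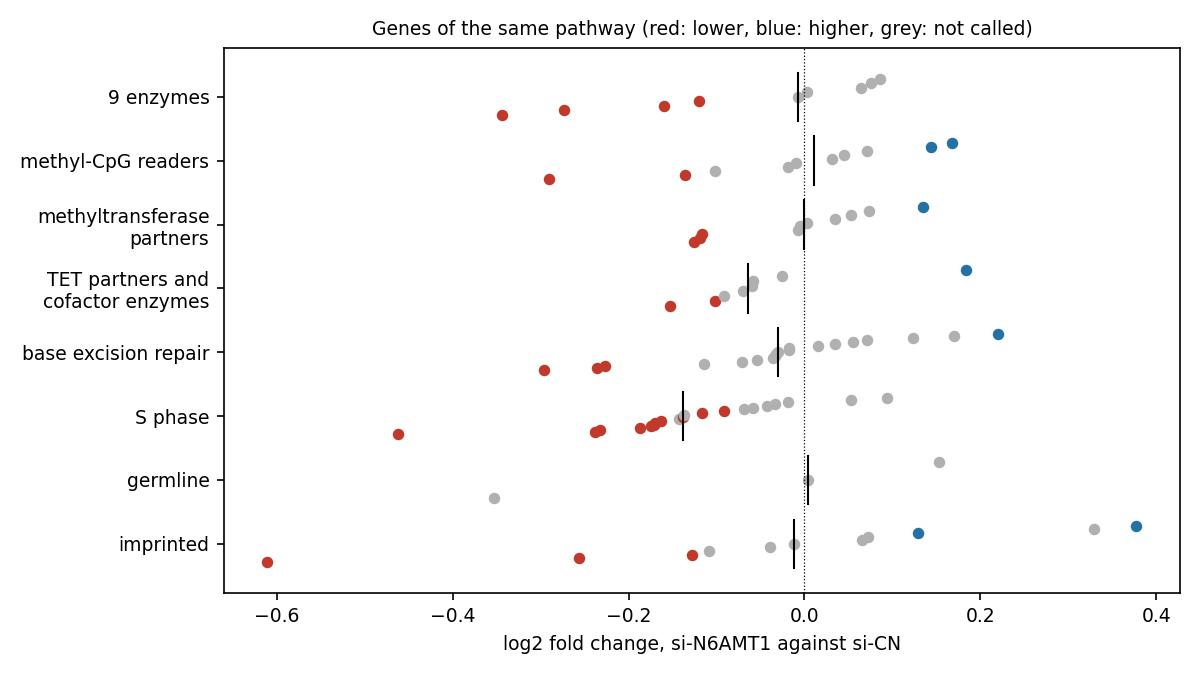
log2 fold change of si-N6AMT1 against si-CN (horizontal axis) for the tested genes of the 9 enzymes and 7 related lists, 1 point per gene, red for lower and blue for higher at an FDR of 0.05 and a black line for the median. All lists straddle 0, and the S phase genes have the lowest median, -0.138.

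Over the 6 libraries, the genes whose log2 CPM was most like that of UHRF1 were N6AMT1 itself (Pearson r = 0.999), LZIC (r = 0.9982) and FLVCR1 (r = 0.9982). These points fall into 2 groups, so that any gene with a clean difference between the groups correlates, and 1425 genes reached an r of 0.9. LZIC fell by 0.26 on the log2 scale (FDR 0.00145) and FLVCR1, a haem and choline transporter gene, by 0.44 (FDR 6.58e-08).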

How the data were processed

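RNA-seq libraries of cells labelled MDA-MB-453 were grouped by their labels, 3 si-N6AMT1 and 3 si-CN. The 9 genes and the lists beside them were chosen with earlier results of these data known. The authors made stranded mRNA libraries, trimmed reads with Trim Galore, ran kallisto v0.46.0 on hg19 and deposited estimated counts (expected counts, whole numbers) per gene without normalization. Since kallisto shares ambiguous reads out by estimation, overlapping genes and copies are uncertain. The strand option was not given in the sources used here. Library totals were 19739247 to 21289740 counts.

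Here edgeR v4.0.16 was used (R v4.3.3), with its expression filter (minimum count 10, 17320 genes left), TMM and a quasi-likelihood test over all 6 libraries and no covariate. The Benjamini-Hochberg FDR covers every tested gene, with a threshold of 0.05. SE was obtained from the log2 fold change and the F statistic. Chi-square per degree of freedom was 1.36 to 1.77 between libraries of 1 group and 6.85 to 7.81 across groups. All 6 libraries were treated as separate samples, which these values do not establish. The variation between libraries of a group beyond counting error, as a coefficient of variation from edgeR's common dispersion, was only 1.85%. Small changes could therefore pass the test in genes with many counts. TPM used GENCODE transcript lengths on GRCh37. The procedure was tested on simulated counts.

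Named genes are the 9, N6AMT1, in each list the called genes of smallest p (at most 4, or the 2 highest by mean CPM where fewer than 2 were called), the cell type markers, and the 3 genes most like UHRF1, the member of smallest FDR. Genes whose call changed with 1 library left out were named after their values had been seen. The alternatives tried were RLE scaling, DESeq2 v1.42.0 (NA left as NA), limma-voom (v3.58.1), no filter, a minimum count of 50, mitochondrial genes left out, a replicate block, this block with a GC correction, and each library left out. A marker gene is not reported here. Figures were drawn with matplotlib v3.10.9 in Python v3.11.15.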

Additional observations from a re-analysis of the deposited data

How the results depend on the processing

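Under all 14 alternatives the 4 genes DNMT1, UHRF1, UHRF2 and TET2 were called lower and none of the 9 was called higher. Log2 fold changes ran from -0.14 to -0.11 for DNMT1, -0.37 to -0.33 for UHRF1, -0.17 to -0.14 for UHRF2 and -0.32 to -0.23 for TET2, with a highest FDR of 0.0125. Over all tested genes DESeq2 called 1275 lower and 955 higher, against 1993 and 1694 by edgeR, and the cause was not tested. Leaving out 1 library gave 1540 to 1818 lower and 1295 to 1523 higher. A replicate block gave 1804 lower and 1522 higher, and 1641 and 1447 with a GC correction. Same-numbered libraries did not deviate together (r = -0.119, -0.0888 and 0.00647 over 10103 genes), so the numbers were not taken as pairs. Of the named genes in the related lists, ZBTB33, CDCA7, CDCA7L, SETDB1, IDH3A, CXXC5, CDT1 and GINS2 also missed the threshold in DESeq2, and their highest FDR over the alternatives ran from 0.0784 for CDCA7L to 0.228 for CDT1. TET1 had no value with a minimum count of 50, and its adjusted p was NA in DESeq2. Depth limits TET1, and the number of libraries limits ratios within a library.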

Other observations

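Genes known to be kept silent by promoter methylation in somatic cells were mostly undetected in both groups. Of 21 germline genes only 3 had enough counts to be tested, 6 had no count in any library and no untested gene exceeded 8 counts. None of the 3 was called by edgeR, with 1 lower and 1 higher at an unadjusted p under 0.05. Over all tested genes 11.5% were called lower and 9.78% higher, so that no call among 3 genes is no result about the germline genes as a group. The cancer-testis genes MAGEA1 (31.62 CPM in si-CN and 31.7 after si-N6AMT1, FDR 0.965) and MAGEA4 (18.62 and 20.7 CPM, FDR 0.0769) were expressed in both groups. Without si-N6AMT1 replicate 1, MAGEA4 was called higher (FDR 0.0442) and PIWIL2 lower (FDR 0.0364).

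The parental alleles of imprinted genes differ in methylation. Of 18 such genes 11 were tested, 3 were lower, 2 were higher and 6 were not called, with a median log2 fold change of -0.012, beside 11.5% lower and 9.78% higher over all tested genes. H19 rose from 1362 to 1769 CPM (log2 fold change 0.38 ± 0.0197 SE, edgeR FDR 3.35e-12) and GRB10 from 133.1 to 145.7 CPM (0.13, FDR 0.000699). PHLDA2 fell from 72.83 to 47.71 CPM (-0.61 ± 0.0365 SE, FDR 3.07e-11) and PEG10 from 93.92 to 78.64 CPM (-0.26, FDR 9.68e-07). NNAT, with 49 to 71 counts per library, was called higher only without si-N6AMT1 replicate 2 (FDR 0.0482). The levels of these imprinted genes are sums over both alleles.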
